A study of Homo sapiens with 54 samples.

Results

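The genes described here are 29 genes of sterol and fatty acid synthesis, chosen from a list of known targets and regulators of the sterol regulatory element-binding proteins (SREBPs) and followed through every bulk RNA group of the study. They are 29 of 58735 genes in the bulk table. By role they fall into 7 genes of the mevalonate steps, 11 of the squalene and sterol ring steps, 4 that control SREBP itself, 1 sterol carrier and 6 genes of fatty acid synthesis, elongation and desaturation. The study made macrophages from H1, an established human embryonic stem cell line, in a porous 3D microscaffold and set them beside macrophages made in 2D culture, and compared the transcripts of the 2 kinds of culture. There are 32 bulk RNA libraries in 11 groups, with levels in TPM (a transcript level scaled to a fixed library total), which are scaled for transcript length.

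All groups derive from H1, carry the cell type label macrophage, and differ as follows. The 2D day 12 and 3D day 12 groups have 4 libraries each. Groups of 3D days 16, 19 and 23 have 3 libraries each, and a second set of 3 at each of these days has FBS, the usual abbreviation of fetal bovine serum, in its title. The 3D groups named SP6A and SP14, names the labels give in place of a day and do not explain, have 2 libraries each. A 3D group with E. coli in its title, with no day or dose given, also has 2. The single-cell (10X droplet) data are 1 library of 3D culture from each of days 7, 9 and 12. Every group rests on 1 cell line. The labels do not say whether replicates were separate cultures, so p-values measure only the spread between these libraries.

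Cholesterol is built from acetyl-CoA through mevalonate, isoprenoid units, squalene and lanosterol, and SREBP2, the product of SREBF2, is the transcription factor known to drive genes along the whole path. SCAP carries SREBP from the endoplasmic reticulum to the Golgi, where it is cut and released to the nucleus. INSIG1 and INSIG2 hold SCAP in the endoplasmic reticulum when sterols are plentiful, and INSIG1 is itself an SREBP target. In macrophages, which take up lipid from their surroundings, sterol synthesis is balanced against export through ABCA1 and ABCG1, transporters under the liver X receptors.

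SREBPs are known to bind sterol regulatory elements, often beside CCAAT boxes bound by NF-Y. Promoters were taken from RefSeq (GRCh38.p14) as the 250 bases before each start that its promoter table lists, and 25 of the 29 genes were matched to that table, all but ACAT2, FASN, FDFT1 and SQLE. The 25 genes have 35 windows, since some genes have several starts, and windows of ACACA, MVK and IDI1 among others lie inside the gene. A gene is counted as holding a motif when any of its windows does. The promoters of 4 genes are shown because they belong to genes on which the results below turn: the regulator SREBF2, the C4-methyl sterol oxidase MSMO1, the sterol isomerase EBP and the SREBP retention gene INSIG1. Each of the 4 has 1 window, which ends at the base before the gene, and is printed 5′ to 3′ on the gene's own strand. Capitals mark matches to 1 of 3 motifs, searched on both strands: the sterol regulatory element core TCACNCCA, the letters of the CCAAT box, which read ATTGG when the box lies on the other strand, and the E-box CACGTG. No printed match overlaps another.
SREBF2, plus strand, chr22:41832855-41833104: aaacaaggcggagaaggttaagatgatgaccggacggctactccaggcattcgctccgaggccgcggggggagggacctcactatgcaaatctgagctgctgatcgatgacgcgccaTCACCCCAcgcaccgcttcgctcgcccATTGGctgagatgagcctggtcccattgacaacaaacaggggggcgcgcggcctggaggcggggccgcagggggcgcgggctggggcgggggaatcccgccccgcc
MSMO1, plus strand, chr4:165327419-165327668: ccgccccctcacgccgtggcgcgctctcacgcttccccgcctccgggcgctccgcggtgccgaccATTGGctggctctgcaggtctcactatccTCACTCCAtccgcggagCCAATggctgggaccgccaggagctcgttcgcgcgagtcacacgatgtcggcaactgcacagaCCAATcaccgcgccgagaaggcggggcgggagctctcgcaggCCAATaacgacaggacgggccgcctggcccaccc
EBP, plus strand, chrX:48521558-48521807: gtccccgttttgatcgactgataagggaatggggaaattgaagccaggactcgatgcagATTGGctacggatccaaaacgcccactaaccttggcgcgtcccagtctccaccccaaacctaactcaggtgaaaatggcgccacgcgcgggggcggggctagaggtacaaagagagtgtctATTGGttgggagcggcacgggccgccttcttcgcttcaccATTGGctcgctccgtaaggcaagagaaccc
INSIG1, plus strand, chr7:155297628-155297877: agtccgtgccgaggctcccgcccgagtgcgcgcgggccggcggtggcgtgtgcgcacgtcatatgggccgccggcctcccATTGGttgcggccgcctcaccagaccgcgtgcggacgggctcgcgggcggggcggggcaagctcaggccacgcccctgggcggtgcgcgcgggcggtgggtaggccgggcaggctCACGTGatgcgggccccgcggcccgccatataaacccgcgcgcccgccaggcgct
The SREBF2 and INSIG1 windows also overlap the annotated non-coding genes SREBF2-AS1 and INSIG1-DT. Letters of the CCAAT box stood in the promoters of 18 of the 25 genes (72.0%), against 37.0% of all 27305 genes with a promoter in the table. The sterol regulatory element core stood in 3 of 25 (MSMO1, MVK and SREBF2), or 12.0%, against 3.92% of all genes. The E-box stood in 3 of 25 (INSIG1, SC5D and SCAP), against 7.73%. MSMO1 held the core 156 to 149 bases before its start with 4 CCAAT boxes around it, and EBP held 3 CCAAT boxes and no match to the other motifs. These are matches of letters within a fixed window, not sites of binding.

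The libraries differed in ways that bear on every comparison below. Macrophage identity was checked with 12 markers, and all 12 averaged at least 1 TPM in each of the 11 groups. Erythroid and granulocyte markers were far higher in 2D: the summed level of 9 erythroid markers was 3427 to 4397 TPM in the 2D libraries and 27.7 to 1719 TPM in 3D day 12, and that of 5 granulocyte markers was 1404 to 2769 against 27.8 to 151 TPM. Markers of mast cells, basophils and eosinophils summed to 356 to 616 TPM in 2D and 0.23 to 371 TPM in 3D day 12, where replicate 4 alone reached the 2D range. Of these 6 markers 4 averaged at least 1 TPM in 2D and 3 in 3D day 12. In bulk RNA, fewer cells of a type and less RNA per cell cannot be told apart. The 3 clone-named genes FP236383.2, FP236383.3 and FP671120.3 took 0.373 to 0.516% of TPM in 2D day 12, 5.55 to 10.5% in 3D day 12 and up to 32.3% in day 19 with FBS, which lowers the TPM of all other genes. Between 11862 and 13257 genes reached 1 TPM in a library, except in the E. coli libraries with 7954 and 8103. The table holds no read totals, so the depth behind each bulk TPM is unknown.

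Across the 11 groups, the summed RNA of the sterol synthesis enzymes was highest at day 12 and lowest with FBS or E. coli. The 18 enzymes of the mevalonate and sterol steps summed to 2391 to 2590 TPM in the 2D day 12 libraries and 1864 to 1990 TPM in 3D day 12. They summed to 640.3 to 1248 TPM in 3D days 16 to 23 without FBS, and to 232 to 328 TPM in the 9 libraries with FBS. SP6A (389 and 397 TPM), SP14 (377 and 397 TPM) and E. coli (235 and 477 TPM) lay below all libraries of days 12 to 23 without FBS. No library with FBS overlapped any library without FBS among the day 16 to 23 groups. By group mean, 13 of the 29 genes were highest in 2D day 12 and 9 in 3D day 12, with no count over all genes beside them. FDPS, which makes farnesyl diphosphate at the branch to sterols and to protein prenylation, was the most abundant of the 29 in 2D and in 3D day 12 (951 to 1064 and 615 to 673 TPM), followed by EBP (499 to 574 and 406 to 454 TPM). These 2 genes weigh heavily on the sums. The median over the 18 enzymes was 44.2 to 52.2 TPM in 3D day 12 and 37.9 to 50.8 TPM at day 19 without FBS. On that measure these 2 groups overlapped. It was 21.6 to 29.5 TPM at day 16 and 34.6 to 37.5 TPM at day 23 without FBS.

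**Figure D1:**
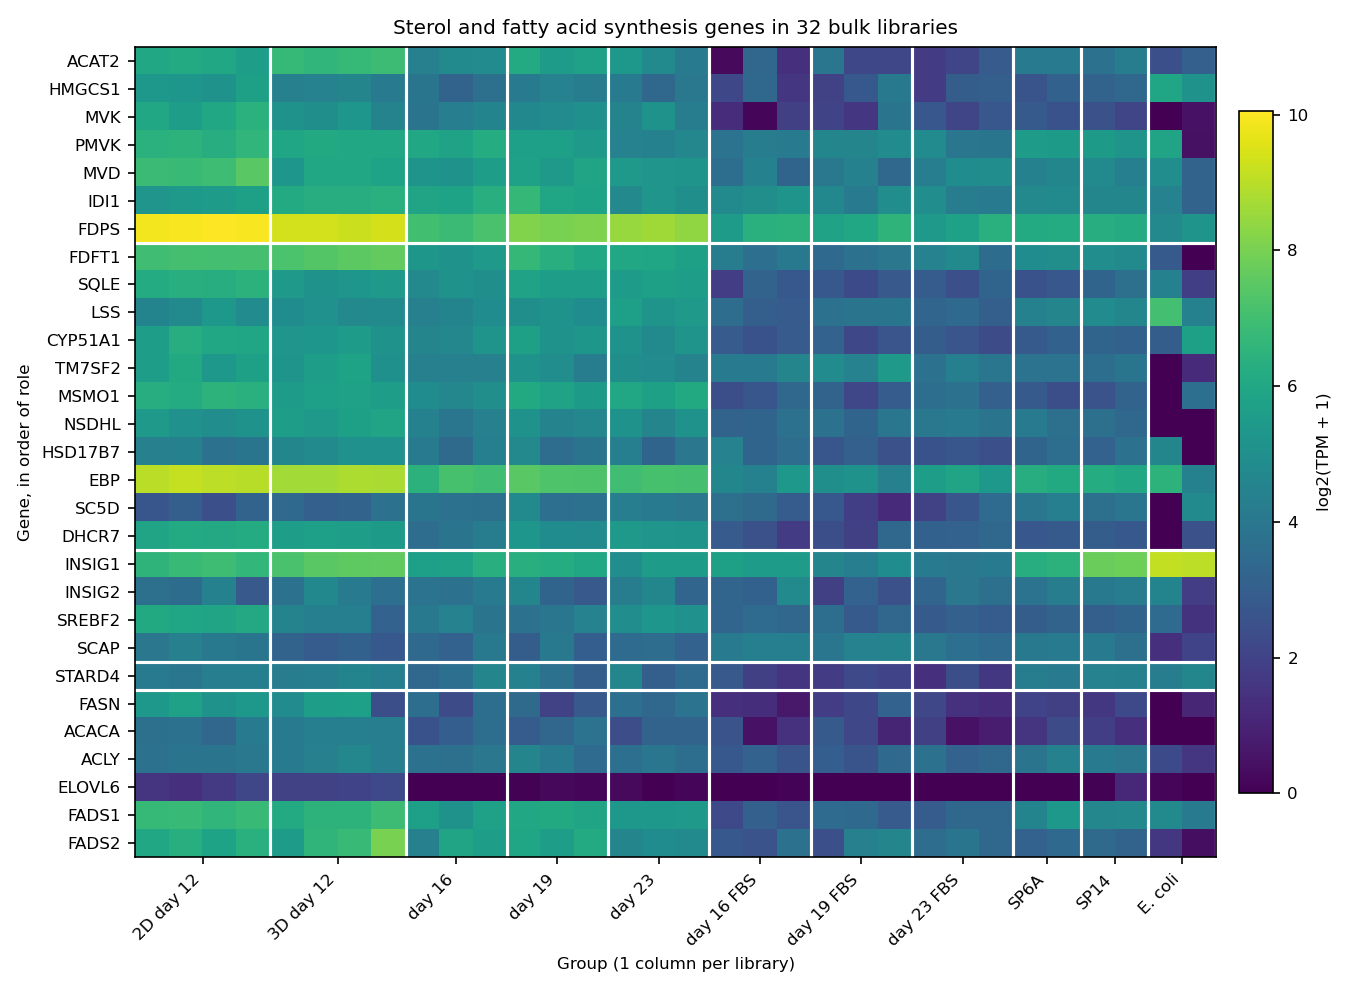
Levels of the 29 genes (rows, in order of role) in 32 bulk libraries (columns, grouped), as log2(TPM + 1), with white lines between groups and roles. FDPS and EBP are the brightest rows, and most rows are darker in the libraries with FBS, SP6A and SP14 than in day 12.

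**Figure D2:**
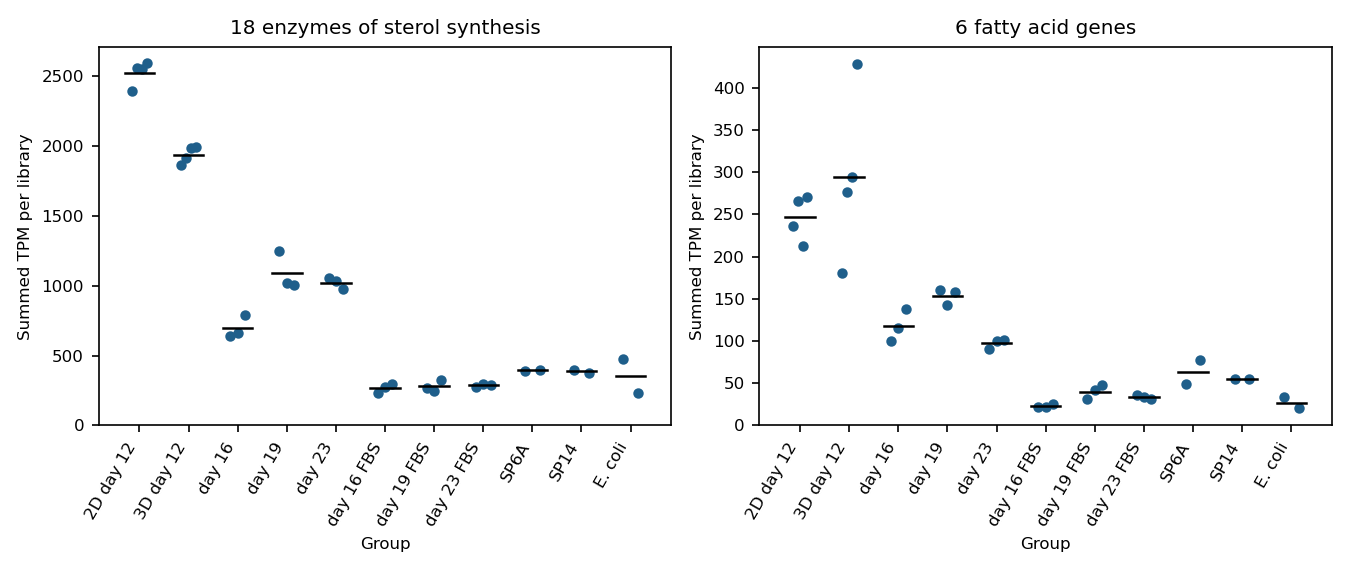
Summed TPM per library of the 18 enzymes of the mevalonate and sterol steps (left) and of the 6 fatty acid genes (right), with 1 point per library and a bar at each group's mean. The 9 libraries with FBS lie between 232 and 328 TPM on the left, below all 9 libraries of the same days without FBS.

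With FBS, RNA of sterol synthesis was lower at every day tested, and 23 of the 28 genes tested fell at 1 or more of the days, against 19% of all genes tested. Changes are differences of mean log2(TPM + 1), on which scale the change of a low gene is understated, and "rose" and "fell" are used for an adjusted p under 0.05. At day 16, 19 of 28 genes tested fell and 0 rose, where 10.4% of all 13384 genes tested fell and 8.09% rose. At day 19, 20 of 28 fell and 1 rose, against 12.7% falling and 12.9% rising among all genes. At day 23, 17 of 28 fell and 0 rose, against 5.11 and 8.99%. ELOVL6 was below the filter on low values and was not tested. The median difference over the 28 genes was -1.47, -1.66 and -1.53 at the 3 days, beside -0.01, 0 and 0.16 over all genes tested. Levels in the FBS group lay wholly below those without FBS for 21, 24 and 23 of 28 genes at days 16, 19 and 23, against 21.0, 19.9 and 13.0% of all genes. Values lay wholly above for 1, 0 and 0 genes, against 18.2, 20.7 and 22.4%. Leaving out replicate 3 of day 16 without FBS lowered the day 16 count from 19 to 10. In a fit without the E. coli libraries, 21, 24 and 21 of 28 genes fell at days 16, 19 and 23. Of all 13348 genes in that fit, 2116, 2450 and 1105 fell. It had 0, 1 and 0 of the 28 genes rising, beside 1616, 2439 and 1964 of all genes.

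Among the mevalonate steps, ACAT2 and MVK fell at all 3 days. ACAT2, the thiolase that joins acetyl-CoA units, read 19.6, 26.3 and 27.6 TPM at day 16 without FBS and 0.18, 9.06 and 1.59 TPM with FBS. The groups did not overlap (log2 difference -3.01, 95% interval -4.14 to -1.88, adjusted p = 0.000392). MVK, mevalonate kinase, read 13.6, 18.6 and 22.3 TPM without FBS and 1.44, 0.11 and 2.71 TPM with FBS at day 16, again with no overlap (log2 difference -3.13, 95% interval -4.08 to -2.17, adjusted p = 3.94e-05). At day 23 MVK read 21.9, 33.99 and 18.3 TPM without and 5.68, 3.31 and 5.65 TPM with FBS (log2 difference -2.11, adjusted p = 0.00261). HMGCS1, the synthase that feeds the rate-limiting reductase, fell at day 19 alone (log2 difference -1.34, adjusted p = 0.0361), a call lost with a pseudocount of 0.1 and in 5 of 6 removals of 1 library, and its log2 differences at days 16 and 23 were -1.23 and -1.24. MVD and IDI1, the decarboxylase and the isomerase that follow, fell at days 16 and 19 but were not called at day 23 (log2 difference -0.59 and -0.596). PMVK, the kinase after MVK, was called at none of the days, with log2 differences of -1.93, -0.91 and -0.27.

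The squalene and sterol ring enzymes fell in the main at every day. SQLE, the epoxidase that acts as a second control point of the pathway, read 54.5, 49.4 and 49.3 TPM at day 19 without FBS and 5.86, 3.74 and 5.99 TPM with FBS. The groups did not overlap (log2 difference -3.09, 95% interval -3.97 to -2.21, adjusted p = 1.06e-05), and SQLE fell at days 16 and 23 as well (-2.39 and -2.74). MSMO1 read 67.3, 55.1 and 43.8 TPM at day 19 without FBS and 8.24, 3.36 and 6.57 TPM with FBS (log2 difference -3.05, 95% interval -4.16 to -1.93, adjusted p = 0.000206). CYP51A1, the lanosterol demethylase, read 52.1, 34.9 and 38.96 TPM without and 7.95, 3.54 and 5.33 TPM with FBS at day 19 (log2 difference -2.74, adjusted p = 5.48e-05). Its pseudogene copy CYP51A1P3 reached up to 17.8 TPM in a library, and reads shared with it are uncertain. EBP read 88.1, 139 and 126 TPM at day 16 without FBS and 23.4, 20.2 and 39.7 TPM with FBS, with no overlap (log2 difference -2.08, adjusted p = 0.000149). DHCR7, which makes cholesterol from its last precursor on 1 branch of the pathway, read 41.8, 36.5 and 35.6 TPM at day 23 without FBS and 7.8, 7.9 and 9.6 TPM with FBS (log2 difference -2.05, adjusted p = 0.00208). With a pseudocount of 0.1 the day 23 calls of DHCR7 and MSMO1 were lost (limma adjusted p = 0.0756 and 0.074). Their day 16 calls were lost as well (limma adjusted p = 0.157 and 0.128). FDFT1, LSS and NSDHL also fell at all 3 days. That pseudocount ended the FDFT1 calls at days 16 and 23 (limma adjusted p = 0.288 and 0.202). TM7SF2, a sterol reductase, and HSD17B7, a sterol ketoreductase with near-identical copies listed at up to 0.36 TPM, were called at no day. SC5D, the lathosterol desaturase, fell at day 19 alone (log2 difference -2.13, adjusted p = 0.0286), a call lost in 3 of 6 removals of 1 library. The SC5D call was also lost with a pseudocount of 0.1 (limma adjusted p = 0.119).

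The carrier fell at every day and the fatty acid genes at 2 or 3 days. The 6 fatty acid genes summed to 99.5 to 138, 143 to 160.4 and 90.7 to 101 TPM at days 16, 19 and 23 without FBS and to 21.8 to 25.8, 30.8 to 47.8 and 30.7 to 35.9 TPM with FBS. STARD4, a protein that moves sterol between membranes, read 23.6, 7.16 and 10.3 TPM at day 23 without FBS and 1.64, 4.33 and 2.06 TPM with FBS, and it fell at all 3 days (-1.81, -1.74 and -1.91). FADS1, the delta-5 desaturase of polyunsaturated fatty acids, read 50.5, 33.7 and 53.1 TPM at day 16 without FBS and 3.6, 7.52 and 5.29 TPM with FBS. Its groups did not overlap (log2 difference -2.87, 95% interval -3.46 to -2.28, adjusted p = 2.12e-07). FADS2, the delta-6 desaturase, fell at days 16 and 19. FADS1 and FADS2 overlap on opposite strands at chromosome 11, and SMART-seq2 libraries do not mark strand, so reads in the overlap cannot be told apart. FASN, fatty acid synthase, and ACACA, acetyl-CoA carboxylase, fell at days 16 and 23, and ACLY, which supplies cytosolic acetyl-CoA, at days 16 and 19. A pseudocount of 0.1 ended the calls of ACACA at day 16 and FASN at day 23 (limma adjusted p = 0.0506 and 0.0665).

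**Figure D3:**
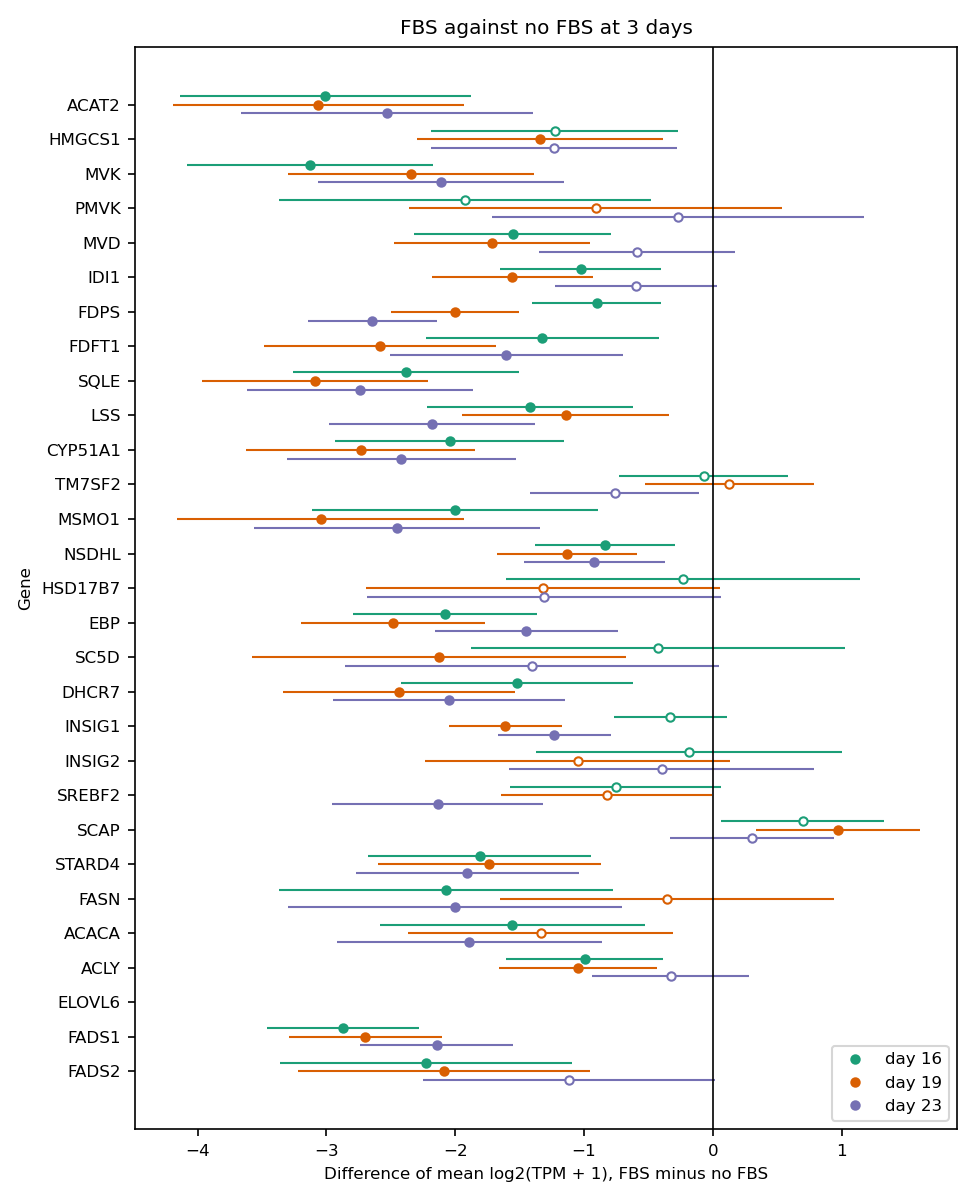
Difference of mean log2(TPM + 1), FBS minus no FBS, at days 16, 19 and 23 for each gene, with 95% intervals from limma and filled points for an adjusted p under 0.05. All but 1 of the filled points lie left of 0, and the exception is SCAP at day 19; ELOVL6 was not tested.

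In all, 13 genes fell with FBS at each of the 3 days, 7 at 2 days, 3 at 1 day and 5 at none, against 1.35, 6.51, 11.1 and 81.0% of all genes tested. The 13 were ACAT2, MVK, FDPS, FDFT1, SQLE, LSS, CYP51A1, MSMO1, NSDHL, EBP, DHCR7, STARD4 and FADS1. Of these, 7 (ACAT2, MVK, SQLE, CYP51A1, EBP, STARD4 and FADS1) kept the call at every day under each alternative run, the removal of single libraries included. The calls of FDFT1 at day 16 and of LSS at day 19 were lost in each of 6 removals of 1 library, that of FASN at day 23 in 5, and those of NSDHL at days 16 and 23 and of ACACA and ACLY at day 16 in 4. Markers of dividing cells also differed: their summed level was 47.0 to 72.4 TPM at day 16, 330.1 to 373 at day 19 and 104 to 141 at day 23 without FBS, and 53.4 to 103, 80.4 to 175 and 36.8 to 149.8 TPM with FBS. Endothelial markers (6 genes) summed to 13.2 to 17.9 TPM without and 24.4 to 28.7 TPM with FBS at day 16, to 17.3 to 36.7 and 19.1 to 33.9 TPM at day 19 and to 12.5 to 15.2 and 27.2 to 38.4 TPM at day 23. Of these 6 genes only 2 averaged at least 1 TPM in each of these groups, save 3 at day 19 with FBS. At day 23 macrophage markers summed to 13040.5 to 13372 TPM without and 20608 to 22598 TPM with FBS, and mitochondrially encoded genes took 4.24 to 4.96 and 7.57 to 8.79% of TPM. Their part in the result was not tested. The share of TPM in the clone-named genes was 24.1 to 32.3% at day 19 with FBS and 12.8 to 21.3% without. With those genes and the mitochondrially encoded genes removed and TPM rescaled, 16, 17 and 17 of the genes that fell at days 16, 19 and 23 kept their calls, and the calls lost were FDFT1, NSDHL and ACACA at day 16 and SC5D, HMGCS1 and LSS at day 19.

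The 4 genes that control SREBP did not move as 1 block with FBS. SREBF2 read 29.3, 37.6 and 32.6 TPM at day 23 without FBS and 6.2, 7.5 and 6.57 TPM with FBS, and it fell there (log2 difference -2.14, 95% interval -2.95 to -1.32, adjusted p = 0.000536). At days 16 and 19 its log2 differences of -0.75 and -0.82 did not pass the test. INSIG1 fell at days 19 and 23. SCAP rose at day 19, with 6.73, 15.5 and 6.94 TPM without FBS and 14.4, 20.9 and 21.6 TPM with FBS. Here the groups overlapped, the call was lost when any 1 of 4 libraries was left out (log2 difference 0.97, 95% interval 0.33 to 1.61, adjusted p = 0.0228). INSIG2 was called at no day.

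Whether the FBS difference itself changed with the day was tested by an interaction term, which called 2 of 28 genes where 13.9% of all genes tested were called. FDPS read 128, 115 and 143 TPM at day 16, 286, 264 and 278 TPM at day 19 and 358, 392 and 332 TPM at day 23 without FBS. With FBS it read 44.3, 82.04 and 87.05, 54.8, 63.5 and 91.01 and 41.4, 53.5 and 82.1 TPM at the same days. The gap widened from a log2 difference of -0.900 at day 16 to -2.64 at day 23 (interaction adjusted p = 0.00337), while the 3 FBS groups overlapped each other. INSIG1 read 49.5, 53.1 and 80.6 TPM at day 16 without FBS and 51.2, 44.6 and 46.2 TPM with it, and 81.2, 72.9 and 64.8 against 23.1, 18.7 and 28.5 TPM at day 19. Its log2 differences were -0.33, -1.61 and -1.23 over the 3 days (interaction adjusted p = 0.0125). For the other 26 genes a change of the FBS difference with day was not detected.

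Genes outside the 29 that belong to the same pathways were taken from a further list of 34, of which 32 were tested. Among 10 genes of sterol export and storage, 4 rose and 1 fell with FBS at day 16, 5 rose and 0 fell at day 19, and 4 rose and 1 fell at day 23. Of all genes tested 8.09, 12.9 and 8.99% rose at these days and 10.4, 12.7 and 5.11% fell. ABCA1, the exporter of cholesterol to lipid-poor particles, rose from 2.93 ± 0.41 to 29.1 ± 4.82 TPM (SD, n = 3 each) at day 16 (limma log2 difference 2.93, adjusted p = 2.99e-07). ABCG1 rose from 0.927 ± 0.51 to 26.7 ± 13.2 TPM (SD, n = 3 each) at day 16, and was listed at 0 in all 3 day 23 libraries without FBS. MYLIP, a ubiquitin ligase for lipoprotein receptors under the liver X receptors, rose at day 16 from 1.91 ± 0.61 to 15.99 ± 1.58 TPM (SD, n = 3 each). Among 13 further synthesis and uptake genes tested, 5, 6 and 4 fell at the 3 days and 0, 1 and 0 rose. SCD, the stearoyl-CoA desaturase, fell at day 19 from 46.4 ± 5.99 to 2.34 ± 1.02 TPM (SD, n = 3 each). Of 9 genes of the isoprenoid branches, which use the same mevalonate, 1 fell at day 16, near the 10.4% of all genes. None were called at days 19 and 23.

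Over the 3D time course without FBS, a part of the genes fell after day 12, and 13 of 28 had their lowest group mean at day 16. Against day 12, 9 of 28 genes fell at day 16 (6.65% of all genes tested fell), 5 at day 19 (5.82%) and 10 at day 23 (15.3%). None rose at days 16 and 19, where 10.2 and 6.36% of all genes rose. SREBF2 alone rose, at day 23, where 10.5% of all genes rose. The 3 comparisons share the day 12 libraries. The median difference over the 28 genes was -0.80, -0.51 and -0.64, beside 0.18, 0.04 and -0.10 over all genes, and 4, 7 and 6 of the 28 differences were above 0. Leaving out replicate 2 or replicate 3 of day 19 lowered the day 19 count from 5 to 3. By group mean over the 4 days, 19 of 28 genes were highest at day 12, where 27.4% of all genes were, and the 13 lowest at day 16 compare with 14.0% of all genes.

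FDPS followed that course, with 665, 660.5, 615 and 673 TPM at day 12 and the day 16 to 23 values given above. It fell at each later day (log2 difference -2.34, adjusted p = 1.02e-07; log2 difference -1.24, adjusted p = 0.000485; log2 difference -0.86, adjusted p = 0.00668). Its 4 groups did not overlap, with day 16 lowest. Levels lay wholly below day 12 for 14, 10 and 15 of 28 genes at days 16, 19 and 23, against 14.2, 14.4 and 24.3% of all genes. They lay wholly above for 0, 1 (SQLE) and 4 (SQLE, SC5D, LSS and SREBF2), against 23.5, 15.1 and 17.0%. FDFT1, squalene synthase and the first step committed to sterols, read 145, 163, 185 and 197 TPM at day 12, 39.01, 34.8 and 42.2 at day 16, 102, 78.2 and 62.2 at day 19 and 61.9, 60.7 and 51.2 at day 23. FDFT1 fell at days 16 and 23 (log2 difference -2.12, adjusted p = 0.000618; log2 difference -1.55, adjusted p = 0.00658). Both calls were lost with a pseudocount of 0.1 (limma adjusted p = 0.0557 and 0.142). Day 16 lay below every library of days 12, 19 and 23 for 5 genes (FDPS, FDFT1, MSMO1, NSDHL and DHCR7), a pattern held by 1.05% of all genes tested. DHCR7 read 46.9, 50.2, 47.9 and 43.9 TPM at day 12, 11, 13.5 and 18.2 at day 16 and 37.6, 28.3 and 28.04 at day 19, and it fell at day 16 alone (log2 difference -1.69, 95% interval -2.53 to -0.84, adjusted p = 0.00503). That DHCR7 call was also lost with a pseudocount of 0.1 (limma adjusted p = 0.124). NSDHL, a sterol dehydrogenase, fell at all 3 days, TM7SF2 at day 16 and FASN at day 19. Of 7 removals of 1 library each, 3 ended the NSDHL call at day 19 and 5 that at day 23, 3 ended the TM7SF2 call and 5 the FASN call. MSMO1 read 46.5, 50.04, 53.3 and 47.9 TPM at day 12 and 28.7, 23.9 and 30.5 at day 16, a gap that did not pass the test (log2 difference -0.82, adjusted p = 0.304). It read 0 and 11.6 TPM in the E. coli libraries, which share the spread of this fit. Without those libraries 12 of 28 genes fell and 0 rose at day 16, beside 1332 and 2169 of all 13348 genes.

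EBP and INSIG1 were below day 12 at each later day. EBP read 409, 406, 454 and 436 TPM at day 12 and ranged over 88.1 to 139, 149 to 177 and 125 to 139.8 TPM at days 16, 19 and 23, with adjusted p of 0.000196, 0.00425 and 0.000443. INSIG1 read 144, 178, 188 and 194 TPM at day 12 and 29.2, 44.6 and 46.4 TPM at day 23, and no library of days 16 to 23 reached the day 12 range (log2 difference -2.13, 95% interval -2.54 to -1.72, adjusted p = 3.67e-08). ACAT2 fell at days 16 and 23 and was not called at day 19 (-2.09, -1.96 and -0.93). IDI1 fell at day 23 alone (log2 difference -1.27, adjusted p = 0.00167). SREBF2 read 21.6, 19.02, 19.1 and 7.9 TPM at day 12 and 29.3, 37.6 and 32.6 TPM at day 23, without overlap (log2 difference 1.01, 95% interval 0.24 to 1.78, adjusted p = 0.0476), and leaving out any 1 of 6 of the 7 libraries, a pseudocount of 0.1, or the replicate number as a block (log2 difference 0.70) ended that call. At day 16, no fatty acid gene but FADS1 was called, a call lost without day 16 replicate 2, while at day 23 ACACA, FADS1 and FADS2 fell. The ACACA call was lost in each of 7 removals of 1 library (adjusted p = 0.0516 to 0.161). ELOVL6, an elongase, read 2.85, 2.81, 3.1 and 3.63 TPM at day 12 and was at or under 0.20 TPM in all 9 later libraries without FBS.

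The 6 markers of dividing cells were also lowest at day 16. Their summed level was 356 to 517 TPM at day 12, 47.0 to 72.4 at day 16, 330.1 to 373 at day 19 and 104 to 141 at day 23. Erythroid markers summed to at most 5.29 TPM at days 16 to 23, below all day 12 libraries. Their part in the result was not tested. Of the 10 sterol export and storage genes, 4 rose at day 16, 4 at day 19 and 3 at day 23, and 2 fell at day 23. Among all genes tested 10.2, 6.36 and 10.5% rose at these days, and 15.3% fell at day 23. Of the 9 isoprenoid genes 4 fell and 0 rose at day 23. NPC2, the lysosomal sterol carrier, rose from 822 ± 49.1 (SD, n = 4) to 1733 ± 90.7 TPM (SD, n = 3) at day 16, and LIPA, lysosomal acid lipase, from 87.9 ± 13.1 to 331 ± 17.8 TPM.

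Between 3D and 2D at day 12 the pathway did not move as 1 unit: 7 of the 29 genes rose and 12 fell in 3D, against 13.5% of all 13131 genes rising and 25.2% falling (38.7% in all). The median difference was -0.23, beside -0.21 over all genes. Median-ratio scaling, which sets each library's typical gene to the same level, moved the median of all genes from -0.21 to -0.04 and the split to 9 up and 9 down, with the calls of EBP, PMVK and DHCR7 lost. Directions below are those on the TPM scale, and for the genes given with values the call held under that scaling.

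In the mevalonate steps, neighbouring enzymes went opposite ways. ACAT2 read 63.9, 69.7, 64.3 and 49.1 TPM in 2D and 107, 97.8, 105 and 118 TPM in 3D, with no overlap (log2 difference 0.79, adjusted p = 0.00154). HMGCS1, the next enzyme, read 40.7, 37.8, 34.5 and 51.5 TPM in 2D and 19.8, 20.9, 23.1 and 16.2 TPM in 3D (log2 difference -0.999, 95% interval -1.39 to -0.61, adjusted p = 0.00156). MVD read 115, 109, 121 and 179 TPM in 2D and 37.8, 63.6, 62.6 and 55.7 TPM in 3D (log2 difference -1.24, adjusted p = 0.00122). IDI1, the enzyme after MVD, was higher in each 3D library than in any 2D library, at 70.01, 76.7, 76.98 and 81.7 against 37.4, 43.02, 45.2 and 51.1 TPM (log2 difference 0.78, adjusted p = 0.00139). FDPS fell (log2 difference -0.62, adjusted p = 0.000211), and MVK and PMVK fell as well. The 7 mevalonate genes were all called, 2 up and 5 down, where 38.7% of all genes were called.

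In the sterol steps 3 of 11 rose and 5 fell, against 13.5% of all genes rising and 25.2% falling. Of the 5 that fell, EBP and DHCR7 lost their calls under median-ratio scaling (limma adjusted p = 0.378 and 0.112). SQLE read 72.4, 80.5, 75.2 and 87.5 TPM in 2D and 41.9, 34.5, 37.6 and 40.9 TPM in 3D, a gap without overlap (log2 difference -1.01, 95% interval -1.295 to -0.72, adjusted p = 0.000237), whereas FDFT1, the enzyme just before it, was a little higher in 3D (log2 difference 0.36, adjusted p = 0.0362), a call lost when any 1 of 7 libraries was left out. NSDHL rose too (log2 difference 0.49, adjusted p = 0.0327), a call lost in 6 of 8 removals, HSD17B7 rose (log2 difference 0.78, adjusted p = 0.0144) and MSMO1 and CYP51A1 fell (-0.68 and -0.65). LSS, the cyclase that makes lanosterol, showed no detectable difference, with an interval of -0.43 to 0.41 on the log2 scale. Of the 6 fatty acid genes ACLY alone was called, higher in 3D (log2 difference 0.49, adjusted p = 0.0375), and 6 of the 8 removals of 1 library ended that call. FASN read 28.2, 49.4, 50.1 and 4.36 TPM in the 3D libraries and FADS2 45.5, 95.6, 109 and 264 TPM. Replicate 4 held the lowest FASN and the highest FADS2 of the group. Its mast cell, basophil and eosinophil markers summed to 371 TPM, against 0.23 to 2.99 TPM in the other 3D day 12 libraries, and their part was not tested. Only 3 of these 6 markers averaged at least 1 TPM in 3D day 12, and CPA3 was 0 in all its libraries.

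**Figure D4:**
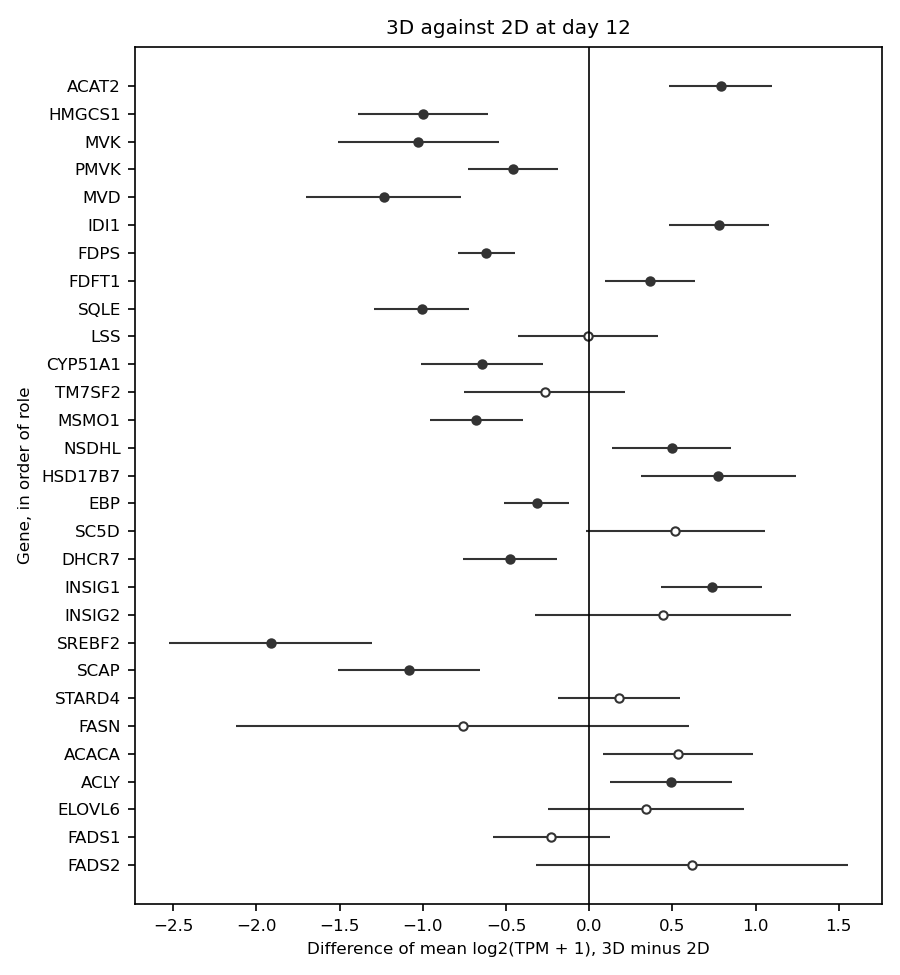
Difference of mean log2(TPM + 1), 3D minus 2D at day 12, for the 29 genes in order of role, with 95% intervals from limma and filled points for an adjusted p under 0.05. Filled points lie on both sides of 0, 7 to the right and 12 to the left, and SREBF2 lies farthest left.

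Of the 4 control genes 3 were called, where 38.7% of all genes were. SREBF2 read 68.7, 59.03, 57.7 and 65.97 TPM in 2D and 21.6, 19.02, 19.1 and 7.9 TPM in 3D, the largest decrease among the 29 genes (log2 difference -1.92, 95% interval -2.52 to -1.31, adjusted p = 0.00045). SCAP read 15.01, 19.7, 15.6 and 14.1 TPM in 2D and 8.24, 6.6, 7.65 and 5.78 TPM in 3D (log2 difference -1.08, 95% interval -1.51 to -0.66, adjusted p = 0.00157). INSIG1 went the other way, at 91.4, 109, 121 and 98.9 TPM in 2D and 144, 178, 188 and 194 TPM in 3D (log2 difference 0.74, 95% interval 0.43 to 1.04, adjusted p = 0.00211). No value of these 3 genes overlapped between the groups. Megakaryocyte markers (7 genes) summed to 699 to 1233 TPM in 2D and 15.2 to 39.4 TPM in 3D, and dividing markers to 324 to 352 and 356 to 517 TPM. The part of these, and of the erythroid and granulocyte markers, in the result was not tested. Of the 13 further synthesis and uptake genes 5 fell and 0 rose, among them ACSS2, which makes acetyl-CoA from acetate, from 83.0 ± 11.9 to 37.1 ± 3.87 TPM (SD, n = 4 each). Of the 9 isoprenoid genes 3 rose and 0 fell, among them GGPS1, the geranylgeranyl diphosphate synthase, from 3.15 ± 0.95 to 12.2 ± 2.63 TPM (SD, n = 4 each). Of all genes tested 13.5% rose and 25.2% fell.

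**Figure D5:**
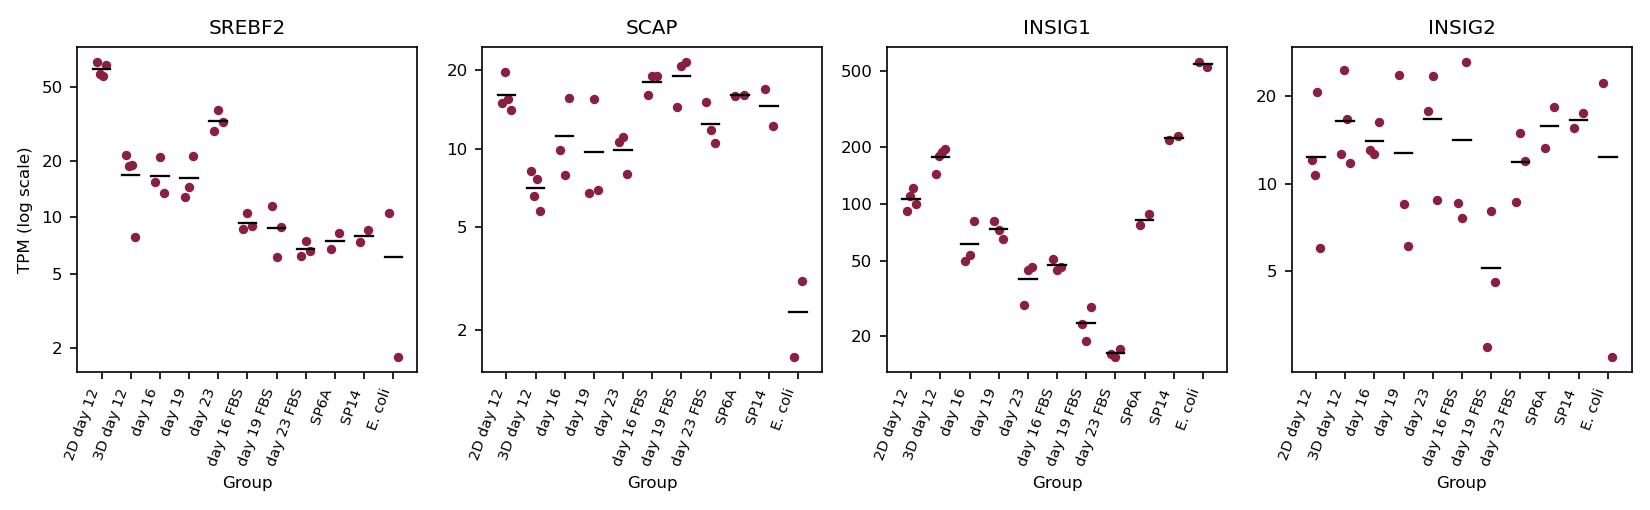
TPM (log scale, a separate range in each panel) of SREBF2, SCAP, INSIG1 and INSIG2 in each library by group, with a bar at each group's mean. SREBF2 is highest in the 4 2D libraries, while INSIG1 is highest in the 2 E. coli libraries and lowest at day 23 with FBS.

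The SP6A and SP14 groups had low sterol synthesis RNA beside 3D day 12, and between the 2 groups a difference was called for INSIG1 alone. The median difference over the 28 genes was -1.58 in SP6A and -1.74 in SP14, beside 0.18 and 0.09 over all genes. In SP6A 19 of 28 genes fell and 1 rose, against 11.3% of all genes tested falling and 16.9% rising. In SP14 17 fell and 1 rose, against 13.1 and 18.1% (31.2% in all). Both are set against the same day 12 libraries. MSMO1 read 6.27 and 4.27 TPM in SP6A and 4.99 and 8.19 TPM in SP14, beside 46.5 to 53.3 TPM at day 12 (-3.02 and -2.76). FDPS read 69.7 and 70.9 TPM and 74.96 and 70.97 TPM, beside 615 to 673 TPM at day 12 (log2 difference -3.197, adjusted p = 1.98e-09; log2 difference -3.14, adjusted p = 1.83e-09). EBP read 75.5 and 68.3 and 73.6 and 63.03 TPM (-2.55 and -2.63). All of these values lay below day 12. Levels lay wholly below day 12 for 23 of 28 genes in SP6A and 21 in SP14, against 24.6 and 26.3% of all genes, and wholly above for 2 in each, against 36.0 and 34.4%.

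The test called LSS, SC5D, PMVK, HSD17B7, INSIG2, STARD4, ACLY and SREBF2 in neither group. Not all of these were near day 12: HSD17B7 read 8.44 and 11.3 TPM in SP6A and 7.86 and 12.3 TPM in SP14, beside 23.2, 26.5, 32.8 and 33.2 TPM at day 12 (-1.46 and -1.45). SREBF2 read 6.75 and 8.21 and 7.36 and 8.56 TPM, beside 21.6, 19.02, 19.1 and 7.9 TPM (-0.998 and -0.92). STARD4 read 17.7 and 17.3 TPM in SP6A and 21.04 and 20.3 TPM in SP14 beside 17.9 to 22.3 TPM at day 12, just below that range in SP6A and within it in SP14. SCAP was the gene that rose in both, at 15.9 and 16.2 and 16.97 and 12.2 TPM, and its calls were lost under median-ratio scaling (log2 difference 0.76 and 0.62) and without either library of the SP group compared. FADS2 read 7.92 and 9.85 and 10.2 and 8.24 TPM, beside 45.5, 95.6, 109 and 264 TPM at day 12 (-3.44 and -3.397). Dividing markers were 340.4 to 368 TPM in SP6A and 363 to 373 TPM in SP14, against 356 to 517 at day 12. Erythroid markers summed to 354 to 387 TPM in both groups, within the day 12 range. Endothelial markers summed to 90.1 to 96.0 TPM in SP6A and 111 to 120.2 TPM in SP14 against 7.08 to 10.2 TPM at day 12, and granulocyte markers to 0.37 to 3.26 and 2.73 to 3.00 against 27.8 to 151 TPM. Only 2 of the 6 endothelial markers averaged at least 1 TPM in each of these 3 groups, so that sum rests on few genes. Macrophage markers summed to 22138 to 23172 TPM in SP6A and 19979 to 20456 TPM in SP14 against 12673 to 14995 TPM at day 12. Their part in the result was not tested.

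INSIG1 was the 1 gene of the 28 called between SP14 and SP6A, where 8 of all 13384 genes (0.0598%) were called, 0.0224% higher and 0.0374% lower. It read 76.8 and 87.5 TPM in SP6A and 217 and 226 TPM in SP14, without overlap (log2 difference 1.42, 95% interval 0.89 to 1.96, adjusted p = 0.0289). Leaving out any of the 4 libraries ended the call, with adjusted p of 0.15 to 0.505 and a log2 difference of 1.33 to 1.52. Against day 12, INSIG1 fell in SP6A (log2 difference -1.08, adjusted p = 0.000738) and was not called in SP14 (log2 difference 0.34, adjusted p = 0.28). For the other 27 genes no difference between the 2 groups was detected, and intervals were wide: that of SQLE ran from -0.23 to 1.92 and that of FDPS from -0.56 to 0.67. Of the 10 sterol export and storage genes, 8 rose in both groups and none fell. Among all genes 16.9% rose and 11.3% fell in SP6A, and 18.1% rose and 13.1% fell in SP14. ABCA1 rose from 2.25 ± 0.33 TPM (SD, n = 4) to 48.4 ± 1.68 in SP6A and 61.1 ± 5.12 in SP14 (SD, n = 2 each), and LIPA from 87.9 ± 13.1 to 609 ± 23.8 and 752 ± 31.4 TPM.

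The E. coli libraries were set against the mean of the 4 3D groups without FBS. Both stood apart from the rest of the series: they correlated with each other at 0.657 on the log2 scale, where the other pairs of replicates reached 0.891 to 0.968, and 17.2 and 25.2% of their TPM came from mitochondrially encoded genes, against 4.24 to 10.9% in the other libraries. Of 28 genes, 21 fell and 2 rose, where 42.7% of all genes tested fell and 13.8% rose (56.5% in all). The median difference over the 28 genes was -2.06, beside -0.84 over all genes. With weights that reflect each library's spread, the 23 calls became 8, with 7 falling and 1 rising. Under those weights 940 of all 13384 genes fell and 161 rose, where 5713 and 1845 had done so without them. The 2 libraries often went apart on single genes: PMVK read 57.9 and 0.38 TPM, CYP51A1 6.82 and 51.6 TPM and LSS 131 and 20.6 TPM. NSDHL and ACACA were listed at 0 in both. MVK at 0 and 0.42 TPM, FDFT1 at 6.25 and 0 TPM and TM7SF2 at 0 and 1.28 TPM were low in both.

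INSIG1 rose to 562 and 529 TPM, above every other library of the series (log2 difference 2.86, 95% interval 2.46 to 3.27, adjusted p = 3.56e-11), and this call held with those weights (adjusted p = 0.00481) and without either library (log2 difference 2.82 and 2.91). HMGCS1, at 61.5 and 35.04 TPM, rose as well (log2 difference 1.54, adjusted p = 0.00413), but its call was lost with the weights (adjusted p = 0.623) and without replicate 1 (adjusted p = 0.0879). STARD4, at 18.2 and 23.3 TPM, was not called. SREBF2 read 10.5 and 1.78 TPM and SCAP 1.58 and 3.11 TPM, and both fell (-1.84 and -1.63), calls lost with the weights, and for SREBF2 also without replicate 2 (log2 difference -0.82). Of the 13 further synthesis and uptake genes 9 fell and 0 rose, where 42.7% of all genes fell and 13.8% rose. Dividing markers summed to 20.3 and 23.8 TPM, below every other group. In 1 of the 2 libraries erythroid markers summed to 3479 TPM and in the other to 0. Markers of mast cells, basophils and eosinophils (6 genes) summed to 1030 and 1812 TPM, against 0 to 843 TPM in all other libraries. Macrophage markers summed to 11923 and 9746 TPM, against 12673 TPM or more in the 3D libraries without FBS of days 12 to 23. Their part in the result was not tested.

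In single cells the genes were summed over all cells of a day, as counts scaled to a fixed total of UMIs (CPM). Days 7, 9 and 12 kept 6767, 11727 and 7961 cell barcodes, whose medians were 24562, 13262 and 17097 UMIs, and 15 to 21 barcodes were shared between 2 libraries. With 1 library per day there is no test, and the 95% exact Poisson intervals cover counting error only. All 29 genes together made up 3161 CPM at day 7, 2927 at day 9 and 2497 at day 12. Of the 29, 16 were highest at day 7, 6 at day 9 and 7 at day 12, with no count over all genes to set beside this. INSIG1 went against that order, at 76.7 (75.4 to 78.0), 117 (115 to 118) and 176 (174 to 178) CPM at days 7, 9 and 12. SREBF2 was 189 (187 to 191), 248 (245 to 249.8) and 131 (129 to 133) CPM.

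The sterol desaturase SC5D was 140.2 CPM (138 to 142) at day 7 and 46.0 (44.96 to 46.99) at day 12, and HMGCS1 was 206 (204 to 208) and 98.5 (96.998 to 99.97). PMVK and EBP were higher at day 12, at 52.4 (51.4 to 53.5) against 25.8 (25.04 to 26.5) CPM and 102 (100.3 to 103) against 64.8 (63.7 to 66.0) CPM. ELOVL6, low in the bulk libraries, was 107 (105 to 108) CPM at day 7 and 45.3 (44.3 to 46.3) at day 12. The mixture of cells differed between the days: 12 macrophage markers summed to 248, 305 and 3444 CPM, and 6 markers of stroma to 1379, 3164 and 8514 CPM. Pooled counts of a day hold all of these cells, and the part of the mixture in the differences was not tested.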

How the data were processed

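Bulk RNA was prepared with TRIzol and SMART-seq2 per the labels' protocols. The authors deposited TPM of 58735 genes in 32 libraries as 1 table; per the submitters' processing notes, HTSeq 0.11.1, HISAT2 and Trim Galore 0.4.4 were among the tools and hg38 was the build, without saying how TPM were computed. Deposited single-cell matrices hold UMI counts, which the authors made with Cell Ranger, per the file headers version 7.0.0 at day 12 and 7.1.0 before. Libraries were grouped by label.

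TPM were transformed to log2(TPM + 1). Genes averaging 1 TPM or more in the fitted libraries were tested with limma 3.58.1 (R 4.3.3, moderated test with a mean-variance trend) and Benjamini-Hochberg adjustment over all genes, at a threshold of 0.05. The 2D against 3D fit held 8 libraries and 13131 genes, and a fit of all 28 3D libraries (13384 genes) gave the other 11 of 12 comparisons. The fit was tested on simulated data. Single cells needed 1000 UMIs, 500 genes and at most 15% mitochondrial counts, and their counts were summed per library; doublets were not removed. Alternatives were the pseudocount, the filter, the scaling, the genes kept, the variance model, the samples in the fit, the replicate block, the barcode filter and each library left out.

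Named genes are the 29 members, with values in every library for called members in order of step, and up to 4 called genes per comparison of the further lists with the lowest adjusted p and at least 5 TPM in the higher group; the text gives a selection. The members and lists were chosen with earlier results of these data known. Gene coordinates are from RefSeq, GRCh38.p14. Chromatin libraries were not analysed here.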

Additional observations from a re-analysis of the deposited data

Results flagged for a closer look

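For FDPS the difference between FBS and no FBS was not the same at days 16, 19 and 23 (interaction over 2 degrees of freedom, limma, adjusted p = 0.00337): its log2 difference was -0.90 at day 16, -2.002 at day 19 and -2.64 at day 23, and it was lower with FBS in all 3 libraries at each day. For INSIG1 the difference also varied with day (adjusted p = 0.0125), from -0.33 at day 16 to -1.61 at day 19 and -1.23 at day 23.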

How the results depend on the processing

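Each count of genes called among the 28 or 29 tested was recomputed under the alternatives, and every count not named here stayed within 1.5 times its value. With a pseudocount of 0.1 the day 23 against day 12 count was 7 in place of 11. Without mitochondrial and clone-named genes the day 19 count was 3 in place of 5. Without the mean-variance trend SP14 against SP6A gave 0 in place of 1 and with array weights 2. Those weights had 347 of all genes rising and 499 falling there. Array weights gave 17, 11 and 17 at days 16, 19 and 23 (in place of 9, 5 and 11), 5 for the FBS by day interaction (in place of 2) and 8 for E. coli (in place of 23). The calls among all 13384 genes moved too. With array weights 1732, 2077 and 2992 of them fell at days 16, 19 and 23, in place of 890, 779 and 2048. Those that rose were 2755, 2025 and 2016, in place of 1364, 851 and 1405. Fitting only the groups compared gave 16, 9 and 17 at these days (0, 0 and 3 of them rising) and 4 for the interaction. In those fits 2264, 1121 and 1827 of all 12653, 12522 and 12704 genes rose, and 1675, 1428 and 2867 fell. Leaving out the E. coli libraries gave 7 for the interaction. Among all genes the main fit had 1218 interaction calls with a positive change from day 16 to 23 and 646 with a negative one. They were 2016 and 1062 with array weights, 1698 and 963 with only the groups compared and 2176 and 1186 without E. coli.

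Leaving out 1 library at a time gave 16 to 19 calls for 3D against 2D, 8 to 10 for day 16, 3 to 5 for day 19, 8 to 9 for day 23, 10 to 17 for FBS at day 16, 16 to 19 for FBS at day 19, 13 to 16 for FBS at day 23, 2 to 2 for the interaction, 16 to 21 for SP6A, 15 to 18 for SP14, 0 to 0 for SP14 against SP6A and 22 to 23 for E. coli. The lowest count for FBS at day 16 came without replicate 3 of day 16 without FBS, and the lowest for day 19 against day 12 without replicate 2 or 3 of day 19. Without E. coli replicate 2, HSD17B7 and PMVK reversed, to 0.41 and 0.35, and neither was then called, while without replicate 1 they were -4.20 and -5.06; PMVK was 57.9 TPM in replicate 1 and 0.38 TPM in replicate 2.

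Same-numbered libraries showed no shared deviation (correlations of -0.12 to 0.04), and the main fit did not pair them. These correlations cannot settle whether the samples were paired, since they rest on deviations from the means of small groups. A fit with the replicate number as a block gave 16 calls for 3D against 2D, 9, 5 and 9 for days 16, 19 and 23, 19, 21 and 17 for FBS, 21 and 17 for SP6A and SP14 and 23 for E. coli. The block ended the day 23 call of SREBF2 (log2 difference 0.70). The depth of the bulk libraries is unknown, so the precision of low values is known only from the spread between replicates.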
